A study of Mus musculus with 6 samples.

Results

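Inflammatory cytokines and macrophage polarization enzymes were examined in mouse BMMSCs, the adherent cells grown out of bone marrow, after knockdown of Tet1 and Tet2. The set was fixed by gene symbol, as the rows of the deposited table named Il6, Tnf, Il10, Il12b, Il1a, Il1rn, Nos2, Arg1, Ptgs2 and Tnfaip2. These are 10 of the 36870 gene symbols in the table, each listed once. The study compared 3 control libraries with 3 siTet1/Tet2 libraries of total RNA, to see how loss of both enzymes changed gene expression. All cells came from C57BL/6 mice and were grown for 14 days after non-adherent cells had been removed at 48 h. They are labelled as passage 2, whereas the methods of the paper give an earlier passage for mouse BMMSCs. The control cells received non-targeting siRNAs according to the labels, although the sequencing methods call them vehicle-treated. The siTet1/Tet2 cells received siRNAs against both Tet1 and Tet2. The labels do not give the age or number of the mice, nor whether the replicates came from separate cultures, so p-values measure only the spread between these libraries.

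Macrophages answer microbial products and interferon by making cytokines that raise inflammation, among them IL-6, TNF, IL-12 and IL-1α, and they limit the response with IL-10 and with the IL-1 receptor antagonist. The balance of inducible nitric oxide synthase (Nos2) and arginase 1 (Arg1), which both consume arginine, is used to describe inflammatory against repair-like polarization. Ptgs2 is the inducible cyclooxygenase that starts prostaglandin synthesis, and Tnfaip2 is a gene induced by TNF. Marrow stromal cells make IL-6 as well, and in myeloid cells Tet2 is known as a repressor of Il6 transcription.

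The promoters of Il6 and Tnf, 2 inflammatory cytokine genes that were lower after knockdown, are shown because Tet enzymes act on methylated CpG dinucleotides and because NF-κB drives both genes. Each is the stretch of 250 bases before the RefSeq start site on GRCm38.p6, given 5′ to 3′ on the strand of the gene. Il6 is from chr5:30012864-30013113 on the plus strand, and Tnf is from chr17:35202008-35202257 on the minus strand. Capitals mark matches, on either strand, to the κB consensus, to the AP-1 motif TGANTCA or to TATAAA.
Il6: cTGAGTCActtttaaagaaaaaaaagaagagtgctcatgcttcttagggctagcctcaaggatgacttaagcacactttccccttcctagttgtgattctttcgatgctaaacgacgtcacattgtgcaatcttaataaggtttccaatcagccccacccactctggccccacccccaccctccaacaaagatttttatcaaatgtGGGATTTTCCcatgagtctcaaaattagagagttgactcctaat
Tnf: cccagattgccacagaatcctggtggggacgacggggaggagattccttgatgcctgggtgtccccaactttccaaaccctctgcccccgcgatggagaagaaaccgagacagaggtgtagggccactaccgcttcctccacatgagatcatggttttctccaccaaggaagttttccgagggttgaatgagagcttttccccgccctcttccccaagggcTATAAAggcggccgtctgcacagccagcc
In Il6 the κB match lay from 44 to 35 bases before the start site and the AP-1 match from 249 to 243 bases before it. In Tnf the only match was TATAAA, from 29 to 24 bases before the start site. The Il6 stretch held 3 CpG dinucleotides and the Tnf stretch 10, and the median over 32851 promoter stretches of the same length was 6. Promoters were at hand for 7 of the 10 genes, with 9 stretches in all. Of these 7 genes, Il6 and Tnfaip2 had a κB match, Il6, Il1a and Il1rn an AP-1 match, and Tnf and Il1a a TATAAA match. Among all stretches 7.25% held a κB match, 6.75% an AP-1 match and 12.4% TATAAA. Tnfaip2 had the most CpG dinucleotides of the 7 genes, 21, and 1 of the Il1rn stretches the fewest, 1. Such matches describe the letters of these stretches only.

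Before the cytokines, the targeted genes and the makeup of the cultures were checked. Values are RPKM, the reads on a gene scaled to its length and to the mapped reads of the library, with 0.001 as the lowest value listed. Tet2 was between 2.57 and 4.08 RPKM in the control libraries and between 0.202 and 0.358 RPKM in the siTet1/Tet2 libraries. Tet1 was too low in RPKM to be tested, with between 0.032 and 0.098 RPKM in the controls and no more than 0.01 RPKM after knockdown. On this long transcript these values are about 17, 46 and 23 reads in control replicates 1 to 3 and about 0, 6 and 0 reads in siTet1/Tet2 replicates 1 to 3. Each library held between 32400000 and 38500000 reads by an estimate from the steps of low RPKM values, so that 1 read on Il6 was worth between 0.0228 and 0.0271 RPKM. All 15 macrophage markers examined, Csf1r, Cd68 and Ptprc (CD45) among them, were well expressed in both groups, and their summed level ranged from 8961 to 11415 RPKM in the control libraries and from 16895 to 20379 RPKM in the siTet1/Tet2 libraries. The 12 stromal markers summed to between 957.7 and 1485 RPKM in the control libraries and between 131.4 and 263.3 RPKM in the siTet1/Tet2 libraries. Among the stromal markers Thy1, Lepr and Lum had a mean under 0.1 RPKM. Lyz2 carried most of the rise of the macrophage sum, which without it ranged from 5414 to 6402 RPKM in the controls and from 7053 to 7652 RPKM after knockdown. The summed neutrophil markers went from between 3.40 and 3.54 RPKM to between 9.27 and 16.2 RPKM, the latter almost all S100a8, while S100a9 stood at the lowest listed value in all libraries. Camp, the only other neutrophil marker tested, went the other way, from a mean of 1.45 RPKM in the controls to 0.058 RPKM after knockdown. The summed T cell markers went from between 2.48 and 2.88 RPKM to between 7.62 and 8.83 RPKM, almost all of it Cd4, while Cd3g stood at the lowest listed value throughout. S100a8 and Cd4 both rose past the test and Camp fell past it, and the part of these genes in the results was not tested. The summed markers of B cells, mast cells, dendritic cells and endothelial cells stayed under 3 RPKM in every library. In such bulk libraries, fewer cells of a type and less RNA per cell cannot be told apart.

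Across the set, most cytokines were lower and both Arg1 and Tnfaip2 were higher in the siTet1/Tet2 libraries. The test was limma on log2(RPKM + 1) over all genes of the table whose mean reached 0.1 RPKM, which 8 of the 10 did. Il12b and Nos2 did not. Of the 8 genes, 5 were lower (Il6, Tnf, Il10, Il1rn and Ptgs2) and 2 were higher (Arg1 and Tnfaip2) with an adjusted p under 0.05 from limma, and Il1a did not pass. Among all 13266 genes tested, 29.8% were lower and 14.7% were higher by the same rule. The 2 groups of libraries did not overlap for 6 of the 8, namely 4 that were lower and both that were higher, and over all genes tested this was so for 55.7% (35.9% lower and 19.8% higher). The median log2 fold change of the 8 genes was -0.51, against -0.09 over all genes tested. The set was chosen with earlier results of these data known, so these shares and medians only describe it. The paper called genes altered at a fold change over 2 and a p under 0.05, taken here as unadjusted. On the log2(RPKM + 1) scale only Il6 met this, and 6.58% of all genes did (5.63% lower and 0.95% higher). Tnf and Il10 met it as well when the fold was taken between the group means, as did 14.5% of all genes (11.8% lower).

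**Figure D1:**
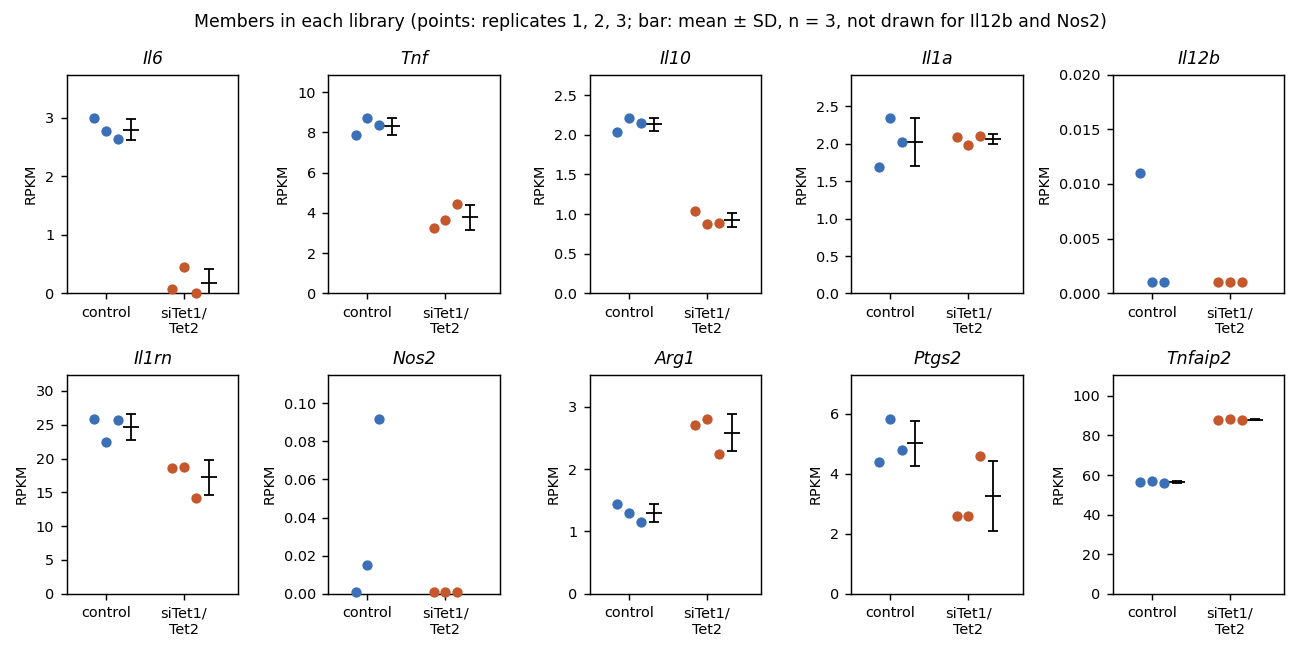
RPKM (vertical axes, linear, each with its own scale) of the 10 genes in the 3 control libraries (blue) and the 3 siTet1/Tet2 libraries (orange), with the mean ± SD of each group (n = 3) as a bar, which is cut at 0 for Il6 and not drawn for Il12b and Nos2. Il6, Tnf, Il10 and Il1rn lie below every control library, Arg1 and Tnfaip2 lie above, and Il1a and Ptgs2 overlap.

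Among the ligands, Il6 had the largest decrease. Il6 (ENSMUSG00000025746.11, chromosome 5 of GRCm38 from 30013114 to 30019981) encodes the acute-phase cytokine that signals through gp130 and Stat3. Control replicates 1, 2 and 3 had 2.99, 2.76 and 2.63 RPKM of Il6, which is about 128, 104 and 97 reads. After knockdown replicates 1, 2 and 3 had 0.072, 0.451 and 0.001 RPKM, which is about 3, 20 and 0 reads. All 3 siTet1/Tet2 libraries were far below the control libraries, but they differed among themselves more than the control libraries did. The mean fell from 2.79 ± 0.180 to 0.175 ± 0.242 RPKM (SD, n = 3), which was 6.25% of the control level and a 16.0-fold difference. Without siTet1/Tet2 replicate 2 the difference was 76.6-fold, and without siTet1/Tet2 replicate 3 it was 10.7-fold, so the size of the fold rested on single libraries. Log2(RPKM + 1) changed by -1.71 ± 0.14 (SE, adjusted p = 4.04e-05 from limma), and 1.91% of all genes tested had a more negative change. With a pseudocount of 0.01 in place of 1 it was -5.23.

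Tnf, on chromosome 17 from 35199381 to 35202007, encodes tumor necrosis factor, a trigger of NF-κB signaling. The RPKM of Tnf was 7.88, 8.70 and 8.36 in control replicates 1 to 3 and 3.23, 3.65 and 4.47 in siTet1/Tet2 replicates 1 to 3. The highest siTet1/Tet2 library stayed well under the lowest control library. The means were 8.31 ± 0.416 and 3.78 ± 0.627 RPKM (SD, n = 3), a 2.20-fold decrease with a log2 fold change of -0.97 ± 0.11 (SE) and an adjusted p of 0.000213 from limma. Il10, on chromosome 1 from 131019845 to 131024974, encodes the cytokine that restrains macrophage activation. The RPKM of Il10 was 2.04, 2.21 and 2.14 in control replicates 1 to 3 and 1.03, 0.869 and 0.884 in siTet1/Tet2 replicates 1 to 3. Both groups were tight and well apart. The decrease was 2.29-fold, with a log2 fold change of -0.70 ± 0.08 (SE) and an adjusted p of 0.000188 from limma. The inflammatory ligand Tnf and the restraining ligand Il10 were thus at 45.5% and 43.6% of their control level.

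Il1a, on chromosome 2 from 129299610 to 129309972, encodes IL-1α, an alarmin that cells hold until they are damaged. Control replicates 1 to 3 held 1.696, 2.34 and 2.02 RPKM of Il1a and siTet1/Tet2 replicates 1 to 3 held 2.10, 1.99 and 2.11 RPKM, so that the groups overlapped. The log2 fold change was 0.03 with a 95% interval from -0.20 to 0.25 (adjusted p = 0.846 from limma), which leaves room for a small change in either direction. Il1b, the other IL-1 agonist, was outside the set and was barely detected, with between 0.052 and 0.068 RPKM in the control libraries and between 0.029 and 0.117 RPKM in the siTet1/Tet2 libraries, or about 2 to 6 reads. Il12b, on chromosome 11 from 44400063 to 44414033, encodes the subunit p40 shared by IL-12 and IL-23. It was at 0.011 RPKM, or about 1 read, in control replicate 1 and at the lowest listed value in the other 5 libraries. No difference in Il12b was detectable at this depth.

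The antagonist of the IL-1 ligands was also lower. Il1rn, on chromosome 2 from 24336853 to 24351494, encodes the receptor antagonist that occupies the IL-1 receptor without signaling. The RPKM of Il1rn was 25.9, 22.4 and 25.7 in control replicates 1 to 3 and 18.6, 18.8 and 14.2 in siTet1/Tet2 replicates 1 to 3, with no overlap. The decrease was 1.43-fold, with a log2 fold change of -0.50 ± 0.11 (SE) and an adjusted p of 0.00767 from limma. The RPKM ratio of Il1rn to Il1a within a library, which does not depend on how libraries were scaled, was 15.3, 9.56 and 12.7 in the control libraries and 8.87, 9.46 and 6.74 in the siTet1/Tet2 libraries. All 3 ratios of the siTet1/Tet2 libraries were under the lowest control ratio, although siTet1/Tet2 replicate 2 came close to control replicate 2. With a pseudocount of 0.1 the difference of the log2 ratios was -0.56 (two-sided exact permutation test, p = 0.1), and 3 libraries against 3 cannot give a smaller p than 0.1.

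Of the 2 enzymes that compete for arginine, Arg1 was higher and Nos2 was too low to test. Arg1, on chromosome 10 from 24915221 to 24927484, encodes arginase 1, which turns arginine into ornithine and urea. Its RPKM was 1.44, 1.30 and 1.15 in control replicates 1 to 3 and 2.704, 2.81 and 2.25 in siTet1/Tet2 replicates 1 to 3. Every siTet1/Tet2 library was above every control library, and the mean rose 2.00-fold, with a log2 fold change of 0.64 ± 0.10 (SE) and an adjusted p of 0.000928 from limma. Among all genes tested, 3.35% had a higher log2 fold change. Nos2, on chromosome 11 from 78920787 to 78960254, encodes inducible nitric oxide synthase. Control replicates 1 to 3 had 0.001, 0.015 and 0.092 RPKM of Nos2, which is about 0, 2 and 12 reads, and all 3 siTet1/Tet2 libraries stood at the lowest listed value. Its signal came mostly from control replicate 3, so neither a fold nor an Arg1 to Nos2 ratio was taken.

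Ptgs2, on chromosome 1 from 150100031 to 150108227, had an RPKM of 4.41, 5.84 and 4.78 in control replicates 1 to 3 and of 2.58, 2.60 and 4.61 in siTet1/Tet2 replicates 1 to 3. Replicates 1 and 2 of the siTet1/Tet2 group were below the control libraries, whereas replicate 3 lay within their range. The log2 fold change was -0.52 ± 0.18 (SE) with an adjusted p of 0.0472 from limma, just past the threshold. Leaving out any 1 library other than siTet1/Tet2 replicate 3 ended the call, with an adjusted p between 0.0542 and 0.157, and without that library the log2 fold change was -0.74 (adjusted p = 0.00252 from limma). The call was also lost after quantile normalization (adjusted p = 0.111 from limma), with median ratio scaling (adjusted p = 0.0787) and without the filter on low values (adjusted p = 0.103).

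Tnfaip2, on chromosome 12 from 111442469 to 111455018, was the most abundant gene of the set. The RPKM of Tnfaip2 was 56.6, 57.1 and 56.0 in control replicates 1 to 3 and 87.7, 88.5 and 87.9 in siTet1/Tet2 replicates 1 to 3. Both groups were narrow, and the gap between them was many times their spread. The rise was 1.56-fold, with a log2 fold change of 0.63 ± 0.05 (SE) and an adjusted p of 4.27e-05 from limma. Tnfaip2 was higher in the same libraries in which Tnf was lower.

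**Figure D2:**
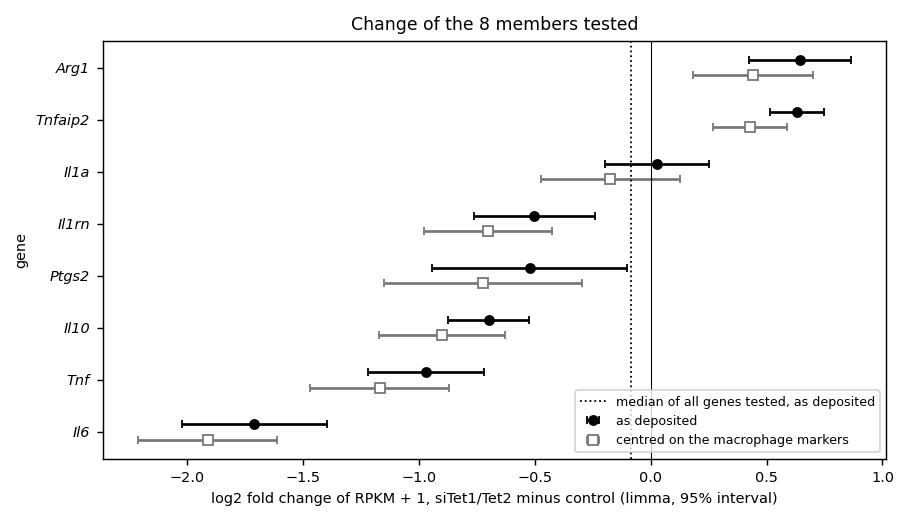
Log2 fold change of RPKM + 1, siTet1/Tet2 minus control, with its 95% interval from limma (horizontal axis) for the 8 genes tested (vertical axis), as deposited (black circles) and with each library centred on the macrophage markers (grey squares). The dotted line is the median of all genes tested, -0.09. The 5 lower and 2 higher genes keep their side of 0 under both, and the point of Il1a changes side. The centring moves all genes down alike, so the lower genes could not change side.

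The order of levels, which RPKM allows to be compared between genes per length, changed in its middle. In the control libraries the order was Tnfaip2, Il1rn, Tnf, Ptgs2, Il6, Il10, Il1a, Arg1, Nos2 and Il12b. Of the neighbours in that order, Il10 and Il1a overlapped, as did Nos2 and Il12b. In the siTet1/Tet2 libraries Arg1 moved up to rank 5, where its range overlapped that of Ptgs2, and Il6 moved down to rank 8. Il1a then stood above Il10 without overlap. Over the 6 libraries, the genes most like Tnfaip2 in log2(RPKM + 1) were Neurl2 and Sort1, each with a Pearson r of 0.999. That likeness is common, since 199 of 13265 genes reached 0.99 with Tnfaip2. The genes most like Il1rn were Zcrb1 (r = 0.994) and Fam45a (r = 0.985). These values describe 6 libraries in 2 groups and share the libraries' scaling.

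Because the macrophage and stromal markers moved with the groups, the genes were also compared with them. Of the 15 macrophage markers 8 were higher and 2 were lower with an adjusted p under 0.05 from limma, with a median log2 fold change of 0.20. Of the 9 stromal markers tested 8 were lower and 0 were higher, all 9 had a negative change, and their median change on the log2 scale was -2.48. Over all genes tested, 14.7% were higher and 29.8% were lower with an adjusted p under 0.05 from limma. With each library centred on the macrophage markers, Il6 (-1.91), Tnf (-1.17), Il10 (-0.90), Il1rn (-0.70) and Ptgs2 (-0.72) were lower and Arg1 (0.44) and Tnfaip2 (0.43) were higher, each with an adjusted p under 0.05 from limma. That centring lowers the change of every gene alike by construction, and the median of all genes went from -0.09 to -0.29. The side of the lower genes was therefore fixed by the scaling, and only genes with a positive change could have changed side. Taken between the group means, the decrease of the 9 stromal markers ranged from 1.43-fold to 10.5-fold with a median of 5.81-fold. Il6, with its 16.0-fold decrease, lay beyond that range. On the log2(RPKM + 1) scale, however, the change of Il6 (-1.71) lay within the range of the stromal markers, from -3.10 to -0.22. Without siTet1/Tet2 replicate 3, which held about 0 reads of Il6, the decrease of Il6 was 10.7-fold. Pdgfra, the stromal marker with the largest decrease, had a control mean of 9.92 RPKM. It had 0.805, 0.934 and 1.09 RPKM in siTet1/Tet2 replicates 1 to 3. Without replicate 3 the decrease of Pdgfra is larger than that of Il6. The place of Il6 beyond the stromal markers thus rested on siTet1/Tet2 replicate 3. The stromal sums behind the Il6 values given above were 1029, 957.7 and 1485 RPKM in control replicates 1 to 3 and 131.4, 175.3 and 263.3 RPKM in siTet1/Tet2 replicates 1 to 3. The part of the stromal and macrophage markers in the changes of the set was not tested beyond these values.

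**Figure D3:**
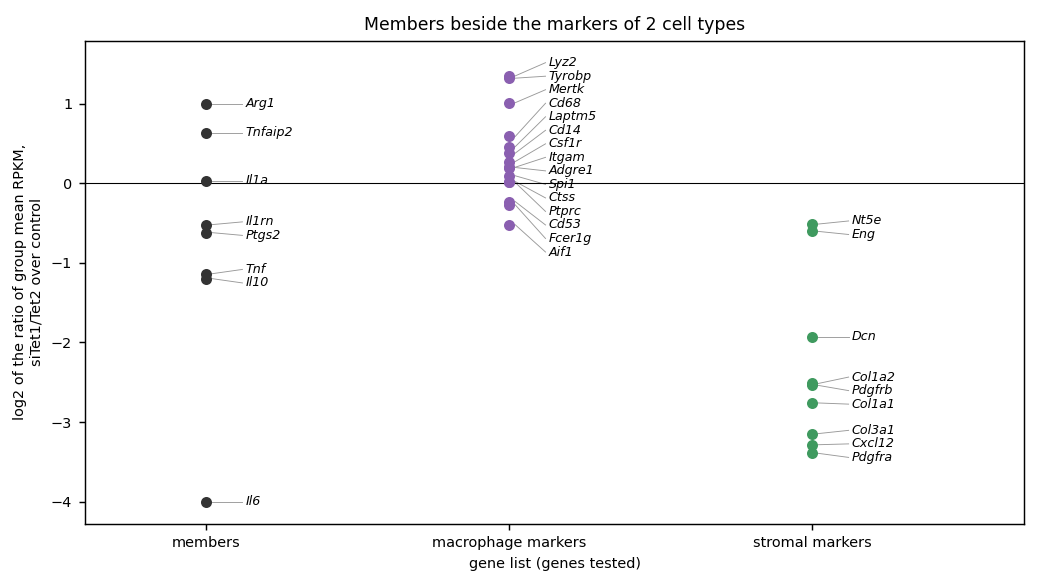
Log2 of the ratio of the group mean RPKM, siTet1/Tet2 over control (vertical axis), of the 8 genes tested, the 15 macrophage markers and the 9 stromal markers tested, with 1 point for each gene. With all libraries included, Il6 lies below all stromal markers, which is not so without siTet1/Tet2 replicate 3. Tnf, Il10 and Ptgs2 lie below all macrophage markers but above most stromal ones, and Il1rn, Il1a, Tnfaip2 and Arg1 lie within or at the edge of the macrophage markers.

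The wider pathways of these genes were examined with a list of 80 ligands, receptors, enzymes and regulators outside the set, of which 67 could be tested. This list, too, was chosen with earlier results of these data known. Of these, 24 were higher and 20 were lower with an adjusted p under 0.05 from limma, with a median log2 fold change of 0.03. Over all genes tested 44.5% were past this test, 14.7% higher and 29.8% lower, and the counts of each group below stand against the same shares. The split depended on the scaling, with 32 higher and 14 lower after quantile normalization, 30 higher and 15 lower with median ratio scaling, and 11 higher and 29 lower when centred on the macrophage markers. By the thresholds of the paper 6 of the 67 genes were altered, against 6.58% of all genes. Hpgd and Chil3 were higher, and Il1r1, Slc7a1, Klf4 and Nfkbiz were lower. Nfkbiz, Nfkbia and the NF-κB subunits below were named after their values had been seen, whereas the other genes are Arg2, as the paralog of Arg1, and those with the lowest p of each group.

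Among the cytokine ligands and antagonists outside the set, Il18 and its antagonist moved apart. Il18, which promotes interferon-γ production, fell from 17.1 ± 0.390 to 12.3 ± 0.606 RPKM (SD, n = 3), whereas Il18bp, the protein that binds and blocks it, rose from 47.1 ± 5.14 to 90.3 ± 9.93 RPKM (SD, n = 3). Il27, a subunit of the cytokine IL-27, fell 4.15-fold from 0.770 to 0.185 RPKM on average. Osm, a cytokine of the IL-6 family, rose from 2.05 to 2.91 RPKM and Tgfb1 from 164.2 to 183.3 RPKM, and neither passed when centred on the macrophage markers, where the log2 fold change of Tgfb1 was -0.043. Osm also did not pass without control replicate 2 or siTet1/Tet2 replicate 1 or 2 (adjusted p between 0.0590 and 0.0654 from limma), and Tgfb1 did not without any 1 library other than control replicate 3 (adjusted p between 0.0633 and 0.146 from limma). Of 17 alternative ways of processing, Tgfb1 lost the call with its sign kept under 7 and changed sign under 1.

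The receptors of the ligands changed in both directions. Of 14 receptor genes tested 4 were higher and 5 were lower with an adjusted p under 0.05 from limma. Tnfrsf1b, the second TNF receptor, rose from 62.3 ± 1.10 to 105.3 ± 4.02 RPKM (SD, n = 3), and Il10ra, the ligand-binding chain for IL-10, rose from 12.3 ± 0.568 to 21.7 ± 0.765 RPKM (SD, n = 3). The ligands Tnf and Il10 were lower in the same libraries. Il1r1, the signaling IL-1 receptor, fell 13.3-fold from 1.62 ± 0.172 to 0.122 ± 0.0680 RPKM (SD, n = 3). Taken between the means of all libraries of each group, its fold, like that of Il6, lay beyond those of the stromal markers. On the log2(RPKM + 1) scale the change of Il1r1 (-1.23) lay within the range of those markers. Il4ra, which carries the signal of IL-4 and IL-13, fell from 50.8 to 32.3 RPKM (log2 fold change -0.64, adjusted p = 0.000188 from limma).

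In the arginine and nitric oxide group, 3 of 8 genes tested were higher and 3 were lower. Arg2, the mitochondrial arginase, had an RPKM of 0.094, 0.001 and 0.077 in control replicates 1 to 3, about 5, 0 and 4 reads, and of 0.836, 0.760 and 0.867 in siTet1/Tet2 replicates 1 to 3, about 46, 42 and 44 reads. Arg2 thus rose in all 3 libraries together with Arg1 (log2 fold change 0.78, adjusted p = 5.44e-05 from limma). Slc7a1, a transporter that brings arginine into the cell, fell from 12.4 ± 1.76 to 5.53 ± 0.796 RPKM (SD, n = 3). Odc1, which makes polyamines from ornithine, fell from 29.7 ± 1.58 to 18.3 ± 0.421 RPKM (SD, n = 3). Cybb, the catalytic subunit of the phagocyte oxidase, rose 1.17-fold, but did not pass when centred on the macrophage markers or without siTet1/Tet2 replicate 1 (adjusted p = 0.0797 from limma).

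Of the 12 prostaglandin genes tested around Ptgs2, 6 were higher and 4 were lower, against 14.7% and 29.8% of all genes. Hpgd, which inactivates prostaglandins, rose 3.79-fold from 6.20 ± 0.668 to 23.5 ± 1.26 RPKM (SD, n = 3), or by 1.77 on the log2(RPKM + 1) scale (adjusted p = 4.99e-06 from limma). Pla2g4a, the phospholipase that frees arachidonic acid, fell from 22.5 to 15.6 RPKM, and Ptges, the inducible synthase of prostaglandin E2, fell from 2.66 to 1.503 RPKM. Ptger2, a receptor of prostaglandin E2, rose 2.36-fold from 2.10 to 4.96 RPKM.

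Among NF-κB subunits and their feedback regulators, 3 of 17 genes were higher and 4 were lower. The 5 subunits Nfkb1, Nfkb2, Rel, Rela and Relb and the inhibitor Nfkbia did not pass. Stat3, the factor activated by IL-6 and IL-10, fell from 41.1 ± 2.10 to 28.6 ± 0.746 RPKM (SD, n = 3), and its target and feedback inhibitor Socs3 fell 2.06-fold from 4.94 to 2.40 RPKM. Nfkbiz, an NF-κB cofactor known to act at the Il6 promoter, fell 2.97-fold from 3.79 ± 1.09 to 1.28 ± 0.231 RPKM (SD, n = 3). Ikbkb and Irak3 were higher by a log2 fold change of 0.36 and 0.27, and neither passed when centred on the macrophage markers. Irak3 also did not pass without any 1 library other than control replicate 2 (adjusted p between 0.0631 and 0.107 from limma).

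Markers of alternative activation, which go with Arg1 in IL-4-treated macrophages, did not move as 1 block. Of 8 genes tested 5 were higher and 2 were lower. Chil3, whose reads may be shared with its near-identical relatives, rose from 0.373 ± 0.334 to 1.94 ± 0.309 RPKM (SD, n = 3) and Egr2 from 1.37 ± 0.237 to 3.23 ± 0.280 RPKM (SD, n = 3). Klf4, a transcription factor of this program, fell 2.93-fold from 7.94 ± 0.291 to 2.72 ± 0.668 RPKM (SD, n = 3), and the mannose receptor Mrc1 fell from 170.2 to 140.7 RPKM (adjusted p = 0.0327 from limma). Mrc1 did not pass after quantile normalization, nor without control replicate 2 or 3 or siTet1/Tet2 replicate 1 or 2 (adjusted p between 0.0510 and 0.119 from limma). The call of Mrc1 was also lost with median ratio scaling (adjusted p = 0.161 from limma) and without the filter on low values (adjusted p = 0.0596 from limma).

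**Figure D4:**
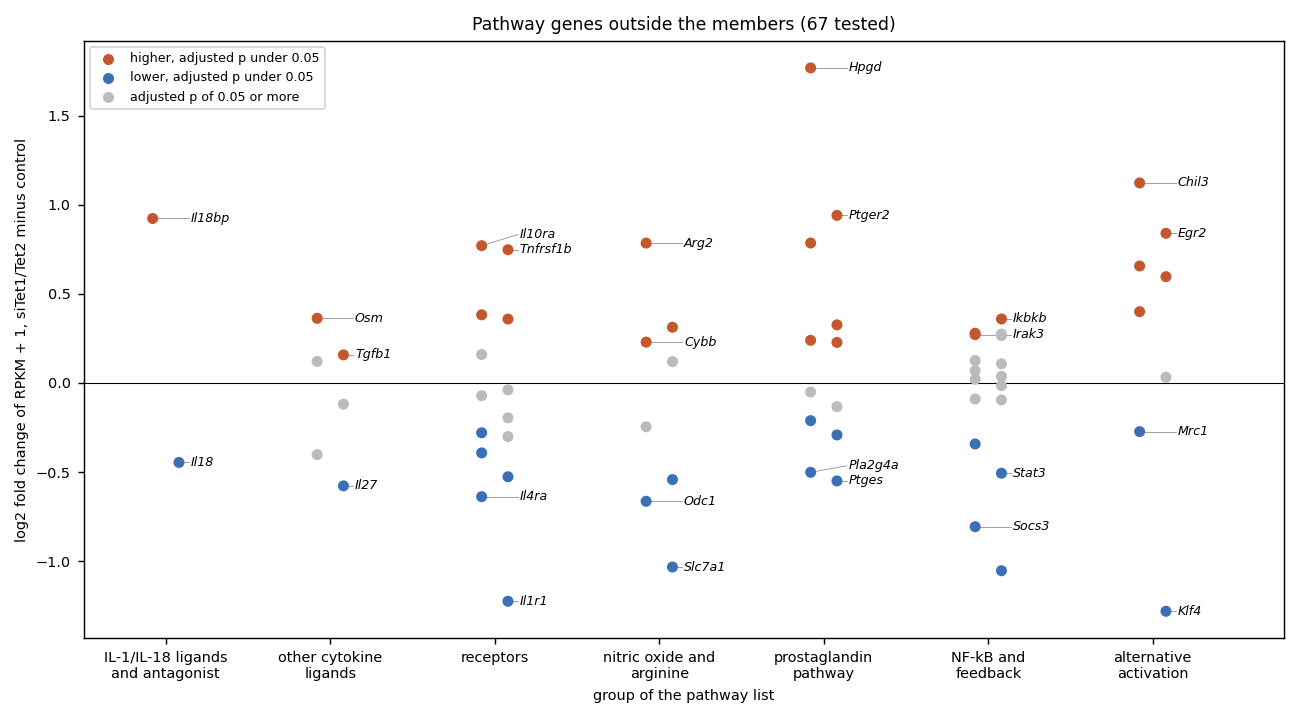
Log2 fold change of RPKM + 1, siTet1/Tet2 minus control (vertical axis), of the 67 pathway genes tested, by group of the list (horizontal axis), with 1 point for each gene and the names of those chosen by lowest p. Orange points are higher and blue points lower with an adjusted p under 0.05 from limma, 24 and 20 genes, and grey points did not pass.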

How the data were processed

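Total RNA of control and siTet1/Tet2 BMMSCs had been sequenced in 6 libraries, 3 of each. The authors trimmed adaptors, mapped reads to GRCm38, estimated abundance with DNASTAR Lasergene and deposited a table of RPKM values, which the methods call FPKM. Which annotation was used, whether strand was, and what became of reads with several matches are not given in the sources used here. The table also holds the authors' p-values, which were not used. The genes and lists were chosen with earlier results of these data known.

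Where a symbol had several rows, that of highest mean stood for it. The 13266 genes averaging 0.1 RPKM or more were tested two-sided on log2(RPKM + 1) with limma 3.58.1 in R 4.3.3 (lmFit, eBayes with trend) and adjusted by the Benjamini-Hochberg method over all genes tested. The fold change on this scale understates that of low genes. The fit was also run on simulated data with independent noise, as a check of the code that bears on none of the calls given here. Replicates correlated with r between 0.992 and 0.997. Deviations from the group means correlated at 0.149, 0.117 and 0.462 between libraries with the same number, all over 0.1, so a fit with the number as a block was added. The pairing rests on these values and on the shared numbers in the labels alone, and it is weak, since control replicate 1 correlated better with siTet1/Tet2 replicate 2 (0.332) and control replicate 2 better with siTet1/Tet2 replicate 1 (0.205).

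Depth was estimated in Python 3.11.15 by finding, for single-transcript genes of GENCODE M21, the total that turned most low values into whole reads. Between 50.1% and 58.2% lay within 0.1 of a whole number (20% by chance at a fixed depth), so read numbers are approximate, no count test was run, and they use the longest RefSeq-linked transcript. Positions are from GENCODE M21 and promoters from RefSeq, both on GRCm38. Named were all 10 genes, the Tet genes, Il1b and Arg2, the 2 pathway genes with the lowest p in each direction of each group, and the 2 genes most like each of the 2 most abundant tested genes. Nfkbiz, Nfkbia, the NF-κB subunits and the marker genes named were chosen after their values were seen. Il36g and Adgre1 are listed under older symbols. Alternatives were other pseudocounts, filters, scalings and variances, the block, and leaving out each library.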

Additional observations from a re-analysis of the deposited data

How the results depend on the processing

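Il6, Tnf, Il10, Il1rn, Arg1 and Tnfaip2 stayed on their side of 0 with limma's adjusted p below 0.05 under 17 alternatives, all but the centring on stromal markers,, with a log2 fold change from -5.23 to -1.54 for Il6, -1.17 to -0.80 for Tnf, -1.19 to -0.47 for Il10, -0.70 to -0.38 for Il1rn, 0.44 to 0.99 for Arg1 and 0.43 to 0.75 for Tnfaip2. Ptgs2 kept its direction and lost the call under 8 of the 17. The higher genes of the set numbered 2 under every one of these, and the lower genes 4 or 5. With the replicate block there were 2 higher and 5 lower genes of the set and 25 higher and 22 lower genes of the pathway list, and the block changed no call of the set. The genes of the set past the thresholds of the paper numbered 1, and 3 with a pseudocount of 0.1 or 0.01 or with the ratio of the group means, 2 when rescaled to the same sum or centred on the macrophage markers, and 1 to 2 with 1 library left out. The second gene without control replicate 1, without siTet1/Tet2 replicate 3, and in those 2 scalings was Tnf.

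The point of Il1a, which did not pass the test, changed sign when rescaled to the same sum (-0.019) or centred on the macrophage markers (-0.17), and ranged from -0.053 to 0.10 with 1 library left out, being negative without control replicate 1. Tet3, which was not targeted, overlapped between the groups as deposited (log2 fold change 0.12, adjusted p = 0.508 from limma). Centred on the macrophage markers, Tet3 was at -0.079 and Tgfb1 at -0.043, and 11 genes of the pathway list were higher against 24. With 1 library left out, 16 to 23 genes of that list were higher and 15 to 20 were lower. Over all genes the median change was -0.09, and 0.06 after quantile normalization, -0.29 centred on the macrophage markers, so all changes are relative to the scaling. With a pseudocount of 0.01 and centred on the stromal markers, chosen after seeing the data, 7 genes of the set were higher and 1 was lower, 8 passed the thresholds of the paper, and 65 genes of the pathway list were higher and 1 was lower, with log2 fold changes of 1.44 for Tnf, 1.39 for Il10, 2.06 for Il1rn and 1.92 for Ptgs2. That scaling lifts all genes alike by construction, and the median of all genes was then 2.47, above the values of these 4 genes, so their change of sign is fixed by the scaling. The cause of the other differences was not tested. The difference of the log2 ratios of Il1rn to Il1a ranged from -0.74 to -0.41. Ratios of Arg1 to Nos2 were not run, since Nos2 was too low. Nos2, Il12b and Il1b had at most 12 estimated reads in any library, too few to compare the groups.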
